A study of Mus musculus with 24 samples.

Results

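A group of 5 genes of lymphocyte killing makes up the set described here: the granzymes Gzma and Gzmb, the pore-forming protein Prf1 (perforin), the cysteine protease Ctsw (cathepsin W) and the death ligand Fasl (Fas ligand). They were chosen as all probe sets of the deposited array table annotated to these gene names, which gave 5 probe sets of the 12422 tested, 1 for each gene: 102995_s_at for Gzma, 102877_at for Gzmb, 93931_at for Prf1, 92214_at for Ctsw and 97113_at for Fasl. The tested probe sets stood for 8251 named genes. The _s_at suffix of the Gzma probe set marks, in this array family's naming, probes that may also match related transcripts.

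The study profiled mouse leukocytes on 24 oligonucleotide arrays in 10 groups, 5 populations on each of 2 backgrounds. The infiltrates and T cells came from mice with the BDC2.5 transgene, a rearranged T cell receptor that makes CD4+ T cells recognise a pancreatic islet antigen. On the B6g7 background (C57Bl/6-H2g7/g7) such mice are described as developing an aggressive insulitis, an infiltration of the islets by leukocytes, and on the NOD background a benign one. Total pancreatic infiltrate was sorted as viable CD45+ cells from BDC2.5 mice at 25, 28 and 24 days of age in B6g7 (3 arrays) and at 25 days in NOD (3 arrays). Antigen-specific T cells were sorted as viable CD4+ cells with a high level of the BDC2.5 clonotype. Those from the pancreas, also gated on CD45+, came from mice of 25 and 22 days in B6g7 (2 arrays) and of 24, 24 and 25 days in NOD (3 arrays). Those from the pancreatic lymph nodes came from mice of 25 and 22 days in B6g7 (2 arrays) and of 24, 22 and 25 days in NOD (3 arrays). Splenic NK cells were sorted as viable CD45+ Asialo GM1+ cells, from B6g7 mice of 6 and 3 weeks without a transgene (2 arrays) and from NOD mice whose age is not given (2 arrays), of which replicate 2 is described as carrying BDC2.5. Splenic leukocytes, the viable CD45+ cells of whole spleen, served as the reference of each background (2 arrays each), and their labels name neither a transgene nor an age. No mice were treated. The spleen RNA went through 1 round of amplification and all other RNA through 2. Nothing in the labels tells if the arrays within a group stem from separate animals or from pools, and the p-values reflect the spread between arrays only, which may be technical.

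Cytotoxic lymphocytes, chiefly NK cells and CD8 T cells, store perforin and granzymes in secretory granules and release them towards a target cell. Perforin forms pores in the target membrane, and granzymes pass through and cleave proteins inside; granzyme B activates caspases and Bid, and granzyme A works by a route that needs no caspase. Ctsw is a cathepsin found mainly in NK and CD8 T cells, and Fas ligand is a surface protein that kills by a separate route, binding the receptor Fas, which activates caspase-8.

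The upstream sequences of the genes are shown first, as a description. RefSeq's promoter table (GRCm38.p6) held 4 of the 5 members and no entry for Ctsw. The windows are read 5′ to 3′ on the strand of the gene, and end at the base before the annotated gene: Gzma at chr13:113100982-113101231 on the minus strand, Gzmb at chr14:56262335-56262584 on the minus strand, Prf1 at chr10:61297586-61297750 on the plus strand and Fasl at chr1:161788496-161788745 on the minus strand. They hold 250 bases each, except 165 bases for Prf1, whose table window runs past the annotated start of the gene. Capitals mark matches on either strand to 6 short motifs of factors known from cytotoxic or activated lymphocytes, chosen after the levels of the genes were known: TGTGGT for RUNX, GTGTGA for T-box factors, TGANTCA for AP-1, TGACGT as part of the CRE site, GGAAGT for ETS and GGAAA for NFAT.
Gzma: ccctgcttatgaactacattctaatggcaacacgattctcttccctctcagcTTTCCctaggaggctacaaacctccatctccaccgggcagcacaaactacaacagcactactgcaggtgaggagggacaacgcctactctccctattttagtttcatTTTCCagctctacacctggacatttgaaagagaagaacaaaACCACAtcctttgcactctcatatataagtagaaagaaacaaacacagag
Gzmb: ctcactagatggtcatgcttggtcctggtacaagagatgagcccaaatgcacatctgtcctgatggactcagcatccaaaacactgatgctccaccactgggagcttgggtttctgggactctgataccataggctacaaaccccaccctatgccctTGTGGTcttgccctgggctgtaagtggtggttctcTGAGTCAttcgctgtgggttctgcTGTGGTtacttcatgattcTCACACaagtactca
Prf1: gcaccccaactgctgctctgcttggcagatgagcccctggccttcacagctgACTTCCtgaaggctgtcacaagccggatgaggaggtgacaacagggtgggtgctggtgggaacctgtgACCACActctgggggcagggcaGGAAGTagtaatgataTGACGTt
Fasl: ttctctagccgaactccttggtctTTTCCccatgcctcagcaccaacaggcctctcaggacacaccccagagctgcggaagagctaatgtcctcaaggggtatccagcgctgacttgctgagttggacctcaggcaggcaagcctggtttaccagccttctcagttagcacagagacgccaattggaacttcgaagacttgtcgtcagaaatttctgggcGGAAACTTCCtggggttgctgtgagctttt
The RUNX letters occurred once in Gzma, at 50 bases before the start (counted to the first base of the match), 2 times in Gzmb, at 93 and 34 bases, and once in the shorter Prf1 window, but not in the Fasl window. They occurred in 14.0% of all 32851 promoter windows of 250 bases in the table. Gzmb also held an AP-1 match (6.75% of windows) at 58 bases and a T-box match (12.3% of windows) at 15 bases before the start. Prf1 held 2 ETS matches (19.7% of windows) and the CRE letters (6.47% of windows). In Fasl an NFAT match (55.6% of windows) and an ETS match overlapped, at 30 and 26 bases before the start, and a second NFAT match lay at 226 bases; Gzma held 2 NFAT matches, at 198 and 91 bases. A match is a description of letters and does not show that a factor binds there, and letters outside these windows were not searched.

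All values are on the log2 scale of the deposited intensity, and a difference of 1 is a doubling. Array medians were close to each other, from 35.1 to 39.1 on the linear scale. Levels of different probe sets are not compared, since probes differ in brightness at equal RNA. The table held no detection calls, so how much of a low reading is background cannot be read from it: Gcg, a hormone gene of pancreatic islets, read 3.10 to 3.72 over the 24 arrays and Sst, another, 4.76 to 5.43. A fold change against a group near such readings understates the change in RNA. In 6 arrays, infiltrate B6g7 replicates 1 and 2 and replicate 1 of each T cell group, the liver gene Alb read 8.40 to 12.7, against 4.01 to 4.90 in the other 18. Values without these arrays are given for infiltrate between backgrounds and for the calls of infiltrate against pancreatic T cells. Elsewhere they are given only where a sign changed. Markers followed the sorted populations: 9 of 12 measured NK cell genes were higher in NK cells than in lymph node T cells in each background at an adjusted p under 0.05, and 3 of 6 measured T cell genes were lower. Of all probe sets, 1.91% were higher and 1.61% lower in B6g7, and 3.74% and 6.37% in NOD. The NK sort also held transcripts of other cells, with the granulocyte gene S100a8 at 9.04 and 11.3 in B6g7 and at 5.03 and 12.6 in NOD. Cd8b1, a chain of the CD8 co-receptor, read 6.86 to 8.46 in the CD4-gated T cell arrays of B6g7, against 4.37 to 5.04 in those of NOD. It was higher in B6g7, without overlap, in infiltrate, spleen and both T cell groups, by 2.12 to 2.98. Arrays lay apart in this direction for 4.65% of probe sets in infiltrate and 15.4% in spleen. For pancreatic and lymph node T cells the shares were 6.13% and 12.8%. Cd8a, the other CD8 gene measured, was higher in B6g7 in infiltrate and lymph node T cells. In spleen, pancreatic T cells and NK cells Cd8a was lower in B6g7. In NK cells Cd8b1 read 10.4 and 5.07 in B6g7 and 5.66 and 4.92 in NOD.

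Granzyme A was high in NK cells, spleen and infiltrate and low in the CD4+ T cells. In total infiltrate Gzma read 8.87, 8.66 and 9.71 in B6g7 and 6.99, 6.93 and 8.30 in NOD. In NK cells it read 9.10 and 9.07 in B6g7 and 8.95 and 8.75 in NOD, and in splenic leukocytes 8.50 and 8.33 in B6g7 and 7.93 and 6.90 in NOD. In pancreatic T cells it read 5.72 and 6.70 in B6g7 and 5.47, 6.42 and 5.56 in NOD, and in lymph node T cells 5.30 and 6.14 in B6g7 and 5.19, 5.67 and 5.35 in NOD. The B6g7 infiltrate thus reached the level of the NK sort, which also held transcripts of other cells, with overlapping arrays. No T cell array reached any array of the other populations. Its group means spanned 3.68 from the highest group to the lowest, more than 98.7% of all probe sets.

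Granzyme B followed another order. In total infiltrate Gzmb read 9.07, 8.09 and 9.72 in B6g7 and 7.57, 7.42 and 8.82 in NOD. In NK cells it read 8.18 and 7.75 in B6g7 and 6.63 and 7.10 in NOD, and in splenic leukocytes 6.42 and 6.51 in B6g7 and 5.86 and 5.75 in NOD. In pancreatic T cells it read 5.92 and 6.52 in B6g7 and 7.28, 6.84 and 6.94 in NOD, and in lymph node T cells 5.25 and 5.86 in B6g7 and 5.27, 5.44 and 5.90 in NOD. The highest group was again the B6g7 infiltrate, with a mean of 8.96, followed by B6g7 NK cells at 7.96 and the NOD infiltrate at 7.94. Next came the NOD pancreatic T cells at 7.02, whose arrays overlapped those of NOD NK cells at 6.87. Spleen lay lower in this order than in that of Gzma, with means of 6.46 in B6g7 and 5.81 in NOD, and the means of the 10 groups spanned 3.43.

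Perforin moved over a narrower range. Prf1 read 7.03, 6.22 and 6.15 in B6g7 infiltrate, 5.59, 5.47 and 5.91 in NOD infiltrate, 6.75 and 6.18 in B6g7 NK cells and 6.57 and 5.92 in NOD NK cells. In splenic leukocytes it read 6.27 and 6.03 in B6g7 and 5.82 and 5.80 in NOD. All 10 arrays of T cells lay between 5.0 and 5.54. The order of the group means was NK cells and infiltrate of B6g7 (both 6.47), NK cells of NOD (6.24), spleen of B6g7 (6.15) and of NOD (5.81), infiltrate of NOD (5.66) and then the 4 groups of T cells (5.17 to 5.30), which overlapped each other. The span was 1.30, and whether the probe set responds less steeply than the others cannot be told from the table.

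Cathepsin W had its highest means in NK cells, at 8.71 and 8.32 in B6g7 and 8.80 and 8.42 in NOD. Ctsw read 8.34, 8.14 and 7.61 in B6g7 infiltrate and 7.08, 6.96 and 6.81 in NOD infiltrate, and 7.98 and 7.53 in B6g7 spleen and 8.03 and 7.68 in NOD spleen. Pancreatic T cells read 6.05 and 6.52 in B6g7 and 7.09, 7.52 and 6.02 in NOD, and lymph node T cells 6.13 and 5.71 in B6g7 and 6.00, 6.38 and 6.00 in NOD. The NOD infiltrate and the NOD pancreatic T cells overlapped, whereas in B6g7 every infiltrate array lay above every T cell array and the highest reached into the NK range.

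Fas ligand, the member outside the granule route, was the one with NK cells clearly at the top. Fasl read 8.49 and 8.11 in B6g7 NK cells and 8.14 and 8.06 in NOD NK cells, and no array of another population exceeded 7.17. The infiltrate read 6.35, 6.83 and 7.17 in B6g7 and 5.41, 5.46 and 6.55 in NOD. Pancreatic T cells read 5.34 and 5.90 in B6g7 and 5.11, 6.09 and 5.76 in NOD, and lymph node T cells 5.27 and 5.65 in B6g7 and 5.39, 5.07 and 5.22 in NOD. Splenic leukocytes were lowest, at 5.35 and 4.95 in B6g7 and 4.92 and 4.61 in NOD, and those of B6g7 overlapped the lymph node T cells.

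**Figure D1:**
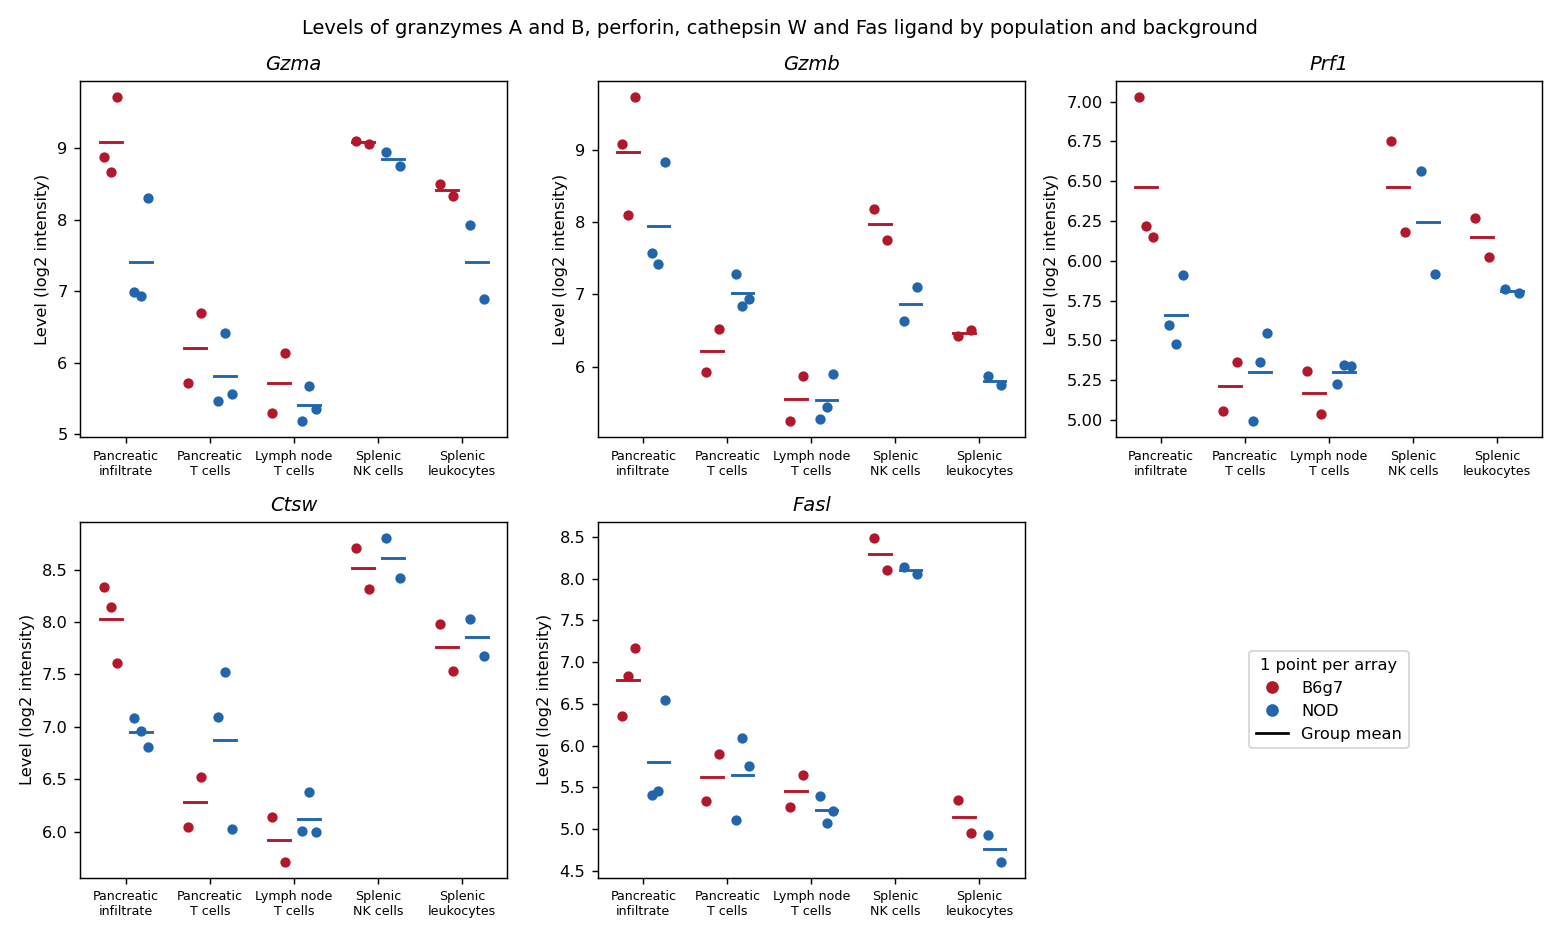
Level of each gene (y axis, log2 intensity, a scale of its own in each panel) in 5 populations (x axis), 1 point per array, with a line at the mean of each group, B6g7 in red and NOD in blue. NK cells stand above lymph node T cells in every panel, and infiltrate stands higher in B6g7 than in NOD, without overlap for Gzma, Prf1 and Ctsw.

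Over the 10 group means, Gzma and Prf1 had a Pearson correlation of 0.977, Prf1 and Ctsw 0.932 and Gzma and Ctsw 0.927. Gzmb correlated with the other members at 0.55 to 0.68 and Fasl at 0.59 to 0.67. These values describe 10 means that share arrays and populations. Among 4124 genes above the median level, the 3 closest to Gzma were Prf1, the chemokine Ccl5 (0.961) and the NK and myeloid adaptor Tyrobp (0.958). Closest to Gzmb were Asah1 (0.941), the inhibitory lectin receptor Klrg1 (0.938) and Ccrl2 (0.932). Prf1 was followed, after Gzma, by Slc25a53 (0.946) and Ctsw, and Ctsw by AW112010 (0.968), Ccl5 (0.956) and Slc25a53 (0.933). Closest to Fasl were Osbpl5 (0.976), Cox17 (0.976) and the thrombin receptor F2r (0.961).

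The contrast of aggressive and benign insulitis asks whether the infiltrate of B6g7 carries more of the cytotoxic transcripts than that of NOD. All 5 members had a higher mean in B6g7, with a median difference of 1.02 on the log2 scale, against -0.02 over all probe sets, but 0 of 5 passed the adjusted p of 0.05, as did 0.274% of all probe sets. At an unadjusted p under 0.05 in limma all 5 passed, against 4.19% of probe sets. The 5 were read on the same arrays and chosen with earlier results of these data known, so they are not 5 separate tests. Fewer cells of a type and less RNA per cell cannot be told apart in such bulk samples. Gzma differed by 1.68 ± 0.40 (SE), a 3.20-fold difference, with an adjusted p of 0.122 (limma, Benjamini-Hochberg). Ctsw differed by 1.08 ± 0.30 (adjusted p 0.264), Prf1 by 0.80 ± 0.23 (0.321), Fasl by 0.98 ± 0.30 (0.411) and Gzmb by 1.02 ± 0.38 (0.737), all in limma. For Gzma, Prf1 and Ctsw the 3 arrays of B6g7 all lay above the 3 of NOD, which held for 4.65% of all probe sets. For Gzmb and Fasl the NOD infiltrate replicate 3 reached into the B6g7 range.

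Whether these differences passed depended on how the arrays were treated. Without NOD infiltrate replicate 3, Gzma (2.12, adjusted p 0.0228) and Fasl (1.35, 0.0498) passed, in a fit where 44 probe sets did, against 34 as reported. With arrays weighted by their agreement, Gzma, Ctsw and Fasl passed, among 302 probe sets. The sample descriptions hold serial codes of unstated meaning, and arrays with close codes were taken as a run. With the run as a block, Gzma (1.70, limma adjusted p 0.0163) and Gzmb (1.29, 0.0398) passed, among 75. Within the run of B6g7 replicate 1 and NOD replicates 1 and 2 the B6g7 array was higher by 1.91 for Gzma, 1.58 for Gzmb, 1.49 for Prf1, 1.32 for Ctsw and 0.92 for Fasl. Within the run of replicate 3 of each background it was higher by 1.42, 0.90, 0.23, 0.80 and 0.62 in the same order. Without the arrays that held liver transcripts, an alternative chosen after seeing the data that leaves 1 array of B6g7 infiltrate, Gzma differed by 2.31 (limma adjusted p 0.324), Gzmb by 1.78, Fasl by 1.36, Ctsw by 0.66 and Prf1 by 0.49.

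Marker genes of other cells were read in the same contrast. Of 12 measured NK cell genes of a list of 14, 11 were higher in B6g7 infiltrate and 2 passed, Klra3 (1.84) and Klrd1 (1.55). The summed intensity of the list ran from 1617 to 1753 in B6g7 and from 739 to 1691 in NOD. Bright genes weigh most in this sum, and the list holds Tyrobp, which myeloid cells share. In NOD infiltrate replicate 1 Tyrobp read 10.19, above all other infiltrate arrays, and Klrd1 read 6.24, below all B6g7 ones. The mean log2 level of the list did not overlap, at 6.28 or more in B6g7 infiltrate and 5.95 or less in NOD. In sorted NK cells the same list also summed higher in B6g7, at 5155 to 5565 against 3176 to 4160 in NOD. There 10 of the 12 genes were higher in B6g7, and 0 passed. Both measured gamma delta T cell segments of a list of 4 were higher in B6g7 infiltrate, Trgv1 by 2.36 with an adjusted p of 0.000628 in limma. Their sum in infiltrate ran from 851 to 1064 against 174.5 to 201. Of 2 CD8 T cell genes, Cd8b1 was higher by 2.12 and Cd8a by 0.25, neither passing, and the sum ran from 207 to 233 against 95.9 to 163. Cd8b1 was also higher in B6g7 in spleen and in the CD4-gated T cells, as given above, so its difference is not particular to infiltrate. Granulocyte genes lay the other way, with 0 of 8 above 0, 0 passing and a sum of 560.0 to 615 against 715 to 1164, and of 6 macrophage genes 1 was above 0 and 0 passed. The part of these populations in the differences of the members was not tested.

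In the other populations 0 of 5 members passed between backgrounds, against 0.0725% of probe sets for spleen, 0.0483% for NK cells, 0.145% for T cells of the pancreas and 0.129% for those of the lymph nodes. At an unadjusted p under 0.05 limma called 0 members in spleen (1.25% of probe sets), 1 in NK cells (1.26%), 0 in pancreatic (6.44%) and 0 in lymph node T cells (6.96%). In spleen Gzma was higher in B6g7 by 1.0 (95% interval -0.03 to 2.03), Gzmb by 0.66 (-0.31 to 1.63), Fasl by 0.38 and Prf1 by 0.34, each without overlap, as for 15.4% of probe sets, and Ctsw was lower by 0.10 with overlap. In NK cells Gzmb was higher in B6g7 by 1.10 (0.13 to 2.07, unadjusted p 0.0289 in limma), and Gzma by 0.23, both without overlap, as for 15.4% of probe sets. Prf1, Fasl and Ctsw differed there by 0.23, 0.20 and -0.10, with overlap. In pancreatic T cells Gzmb was lower in B6g7 than in NOD by 0.80 (difference -0.80, interval -1.69 to 0.09, limma adjusted p 0.813), without overlap, as for 4.36% of probe sets. Ctsw there differed by -0.59 (-1.30 to 0.11), with NOD replicate 3 at the B6g7 level. In lymph node T cells the 5 differences lay between -0.20 and 0.32, and all groups overlapped. The age of the NOD mice behind the NK arrays is not given and their replicate 2 is described with BDC2.5, which cannot be told apart from background.

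**Figure D2:**
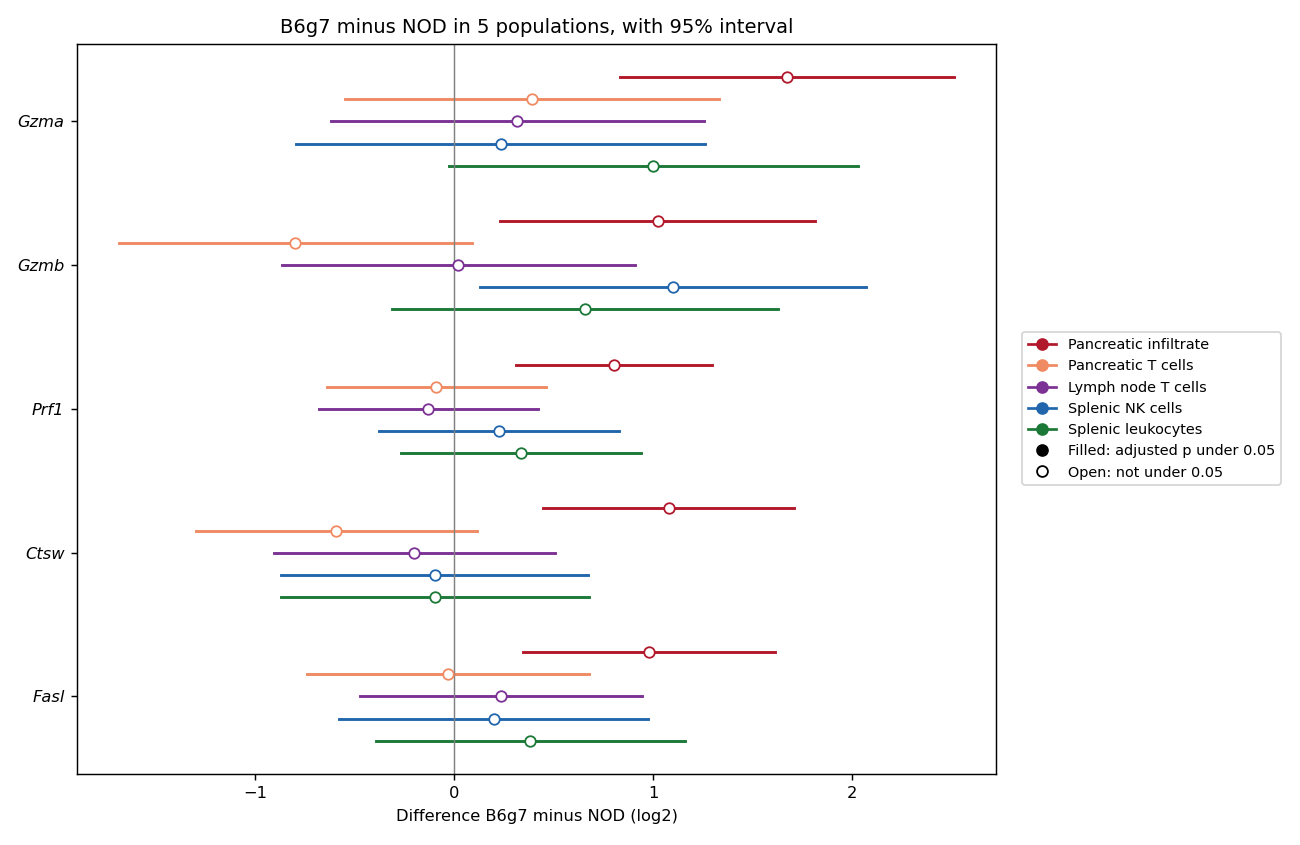
Difference between B6g7 and NOD (x axis, log2) for each gene (y axis) in 5 populations, with the 95% interval of the limma fit. All points are open, since no adjusted p is under 0.05; the infiltrate intervals of all 5 genes lie above 0, and Gzmb in pancreatic T cells, at -0.80, lies on the other side.

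NK cells set against CD4+ lymph node T cells show the cells known for these genes beside cells that mostly lack them. Their tissue differs too. In B6g7 so do the transgene and the age, 6 and 3 weeks against 25 and 22 days. In NOD the age of the NK mice is not given, and replicate 2 of the NK cells is described with BDC2.5. None of these can be told apart from cell type here. In B6g7 all 5 members rose in NK cells (limma adjusted p under 0.05), as did 1.91% of all probe sets: Gzma by 3.36 ± 0.49 or 10.3-fold, Fasl by 2.84 ± 0.37 or 7.15-fold, Ctsw by 2.59 ± 0.37 or 6.02-fold, Gzmb by 2.41 ± 0.46 or 5.31-fold and Prf1 by 1.30 ± 0.29 or 2.45-fold. In NOD 4 of 5 rose, as did 3.74% of probe sets: Gzma by 3.45 ± 0.45, Fasl by 2.87 ± 0.34, Ctsw by 2.49 ± 0.33 and Prf1 by 0.94 ± 0.26. Gzmb was higher in NOD NK cells by 1.33 ± 0.42, with an adjusted p of 0.0535 in limma. No arrays overlapped for any member in either background, as for 25.9% and 28.9% of probe sets. The NK arrays also carried more B cell, granulocyte and macrophage transcripts than the T cell arrays, with 4 of 5, 3 of 8 and 2 of 6 measured genes passing in B6g7 and 4 of 5, 4 of 8 and 4 of 6 in NOD. B6g7 NK replicate 1 had the highest Cd8b1 of all arrays, 10.4. The Gapdh 3′ probe set lay 4.32 to 5.27 above the 5′ one in NK cells and 2.83 to 3.84 above it in lymph node T cells. The part of these in the result was not tested.

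The weaker of these calls rested on the choice of arrays. In B6g7 with only the 4 arrays compared in the fit, 0 probe sets passed, and the members had adjusted p from 0.0966 to 0.175 in limma. Leaving out B6g7 NK replicate 1 ended the calls of Gzmb (2.19, limma adjusted p 0.0589) and Prf1 (1.01, 0.183). Leaving out lymph node replicate 1 of B6g7 ended that of Gzmb (2.10, 0.0678), and leaving out lymph node replicate 2 that of Prf1 (1.16, 0.139). In NOD the Prf1 call ended without lymph node replicate 1 (0.90, 0.0869) or 2 (0.96, 0.0673) and without NK replicate 1 (0.61, 0.323), and the Gzmb difference passed without lymph node replicate 3 (1.51, 0.0468). It passed too without the 40% dimmest probe sets (limma adjusted p 0.0390), with array weights (0.00691) and on only the groups compared (0.0195). Prf1 also missed in both backgrounds with the run of serial codes as a random block, at adjusted p of 0.0960 in B6g7 and 0.265 in NOD. Gzma, Ctsw and Fasl passed in NOD under every alternative tried, and in B6g7 under every one but the fit on the groups compared alone.

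Total infiltrate holds the BDC2.5 T cells together with the other leukocytes, so its contrast with sorted pancreatic T cells asks which transcripts are higher in the mixture. In B6g7, 4 of 5 members rose in the infiltrate, as did 2.33% of probe sets: Gzma by 2.87 ± 0.45 or 7.33-fold, Gzmb by 2.74 ± 0.42 or 6.70-fold, Ctsw by 1.75 ± 0.33 or 3.35-fold and Prf1 by 1.25 ± 0.26 or 2.39-fold. Fasl was higher by 1.16 ± 0.34 (limma adjusted p 0.0853). All 5 were without overlap in B6g7, against 15.3% of probe sets. In NOD, 1 of 5 rose, as did 2.87% of probe sets: Gzma by 1.59 ± 0.40 or 3.01-fold (limma adjusted p 0.0349). Gzmb was higher there by 0.92 ± 0.38 (0.255), like Gzma without overlap (7.33% of probe sets), and Prf1, Fasl and Ctsw differed by 0.36, 0.15 and 0.07, with overlap.

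Of the 12 measured NK cell genes 8 rose in B6g7 infiltrate over T cells and 4 in NOD, as did 4 of 5 B cell genes in each, 4 and 5 of 6 macrophage genes and 2 and 1 of 2 measured gamma delta T cell segments; their part was not tested. In B6g7 the fit on only the arrays compared kept 2 members past the threshold, Gzma and Ctsw. Prf1 missed it there too with array weights (1.07, limma adjusted p 0.0901) or the serial run as a random block (0.0878). Without B6g7 pancreatic T replicate 1, Gzmb alone of the 4 remained, with Gzma at 2.38 (limma adjusted p 0.0543), Ctsw at 1.51 (0.165) and Prf1 at 1.10 (0.215). Without the arrays with liver transcripts, which leaves 1 array in each of these groups, Gzmb differed by 3.20 (0.0217), Gzma by 3.01 (0.0794), Ctsw by 1.09 and Prf1 by 0.79. The Gzma call of NOD ended without infiltrate replicate 1 (1.80, 0.0518) or 3 (1.15, 0.148), without pancreatic T replicate 1 (1.42, 0.113) or 3 (1.46, 0.0607) and without the liver arrays (1.42, 0.114).

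Whether the step from T cells to infiltrate differs between backgrounds was tested as an interaction, a test added after seeing the data. Ctsw had 1.67 ± 0.45 more of a step in B6g7 (unadjusted p 0.00169, adjusted p 0.913 in limma), Gzmb 1.82 ± 0.56 (unadjusted 0.00488), Gzma 1.28 ± 0.60, Fasl 1.01 ± 0.45 and Prf1 0.89 ± 0.35. After adjustment 0 of 5 passed, as did 0.0161% of probe sets. At an unadjusted p under 0.05 in limma all 5 did, against 3.14%. This interaction contains the background difference of infiltrate given above, so it is not a separate observation. Without NOD pancreatic T replicate 3, whose Ctsw of 6.02 was far below the 7.09 and 7.52 of the other 2, Ctsw passed (2.10, limma adjusted p 0.0415).

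Set against spleen of the same background, granzyme B rose in the infiltrate of both backgrounds and Fas ligand in that of B6g7. Gzmb rose by 2.5 ± 0.42 or 5.65-fold in B6g7 and by 2.13 ± 0.42 or 4.39-fold in NOD (limma adjusted p 0.000992 and 0.00341). Fasl rose by 1.63 ± 0.34 in B6g7 (0.00506) and was higher by 1.04 ± 0.34 in NOD (0.0642). These were 2 of 5 members in B6g7, against 2.95% of probe sets higher, and 1 of 5 in NOD, against 3.86%. Gzma differed by 0.67 in B6g7 and 0.00 in NOD, and Prf1 by 0.32 and -0.15, with intervals that include 0. Ctsw differed by 0.27 in B6g7 and was lower in NOD infiltrate by 0.90 (difference -0.90 ± 0.33, limma adjusted p 0.110), without overlap, as for 19.7% of probe sets. On the higher side Gzma, Gzmb and Fasl of B6g7 did not overlap (24% of probe sets), nor did Gzmb and Fasl of NOD (27.6%). The interaction with background was passed by 0 of 5, as by 0.0403% of probe sets (at an unadjusted p under 0.05, 1 of 5 and 1.2%), with Ctsw the farthest from 0 at 1.18 ± 0.47 (unadjusted p 0.0237, adjusted 0.999 in limma). Spleen RNA had 1 round of amplification and infiltrate 2, and the Gapdh 3′ probe set lay 0.214 to 0.371 above the 5′ one in spleen and 2.56 to 3.65 in infiltrate, so population and amplification cannot be told apart here. Beside these, 4 of 5 measured B cell genes in B6g7 and 3 of 5 in NOD fell in infiltrate, against 4.64% and 5.26% of probe sets. Rises were seen for 4 and 2 of 12 NK cell genes and 1 and 4 of 6 macrophage genes. The part of these cells was not tested. The Fasl call of B6g7 ended without spleen replicate 2 (1.43, limma adjusted p 0.0961). With arrays weighted, Fasl (0.83) and Ctsw (-0.87) also passed in NOD, where 3027 probe sets did, against 1133 as reported.

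T cells bearing the same receptor were sampled at both sites, the draining lymph node and the pancreas. No member passed in either background, against 0.0161% of probe sets in NOD and 0 probe sets in B6g7, where limma gave 81 (0.652%) and 0 members at an unadjusted p under 0.05. In NOD, limma gave 18.2% of probe sets and 2 members, Gzmb and Ctsw, at that level. In NOD, Gzmb was higher in the pancreas by 1.48 ± 0.38 or 2.79-fold (limma adjusted p 0.110), and the 3 pancreatic arrays all lay above the 3 of the lymph node, as for 5.17% of probe sets. Ctsw was higher by 0.75 ± 0.30 (0.198) with overlap, and Fasl, Gzma and Prf1 differed by 0.43, 0.41 and 0.00. Within the 2 runs of serial codes that held both sites in NOD, Gzmb was higher in the pancreas by 2.01 and 1.04 and Ctsw by 1.09 and 0.02. The larger values, 2.01 and 1.09, came from the run whose arrays of both sites held liver transcripts. Without NOD pancreatic T replicate 3, Gzmb (1.52, limma adjusted p 0.0256) and Ctsw (1.18, 0.00523) passed, in a fit where 1849 probe sets did. In B6g7, Gzmb was higher by 0.66 ± 0.46, without overlap (10.3% of probe sets), and the other members differed by 0.04 to 0.49. The B6g7 arrays of both sites also fall into 2 runs, each with mice of the same age, within which the pancreas was higher by 0.66 and 0.67 for Gzmb, 0.56 and 0.42 for Gzma and 0.25 and 0.070 for Fasl, while Ctsw differed by 0.81 and -0.089 and Prf1 by 0.33 and -0.25. The interaction of site and background was -0.82 ± 0.59 for Gzmb (unadjusted p 0.186 in limma), and 0 of 5 members and 0 probe sets passed it, with 351 (2.83%) and 0 members at an unadjusted p under 0.05.

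**Figure D3:**
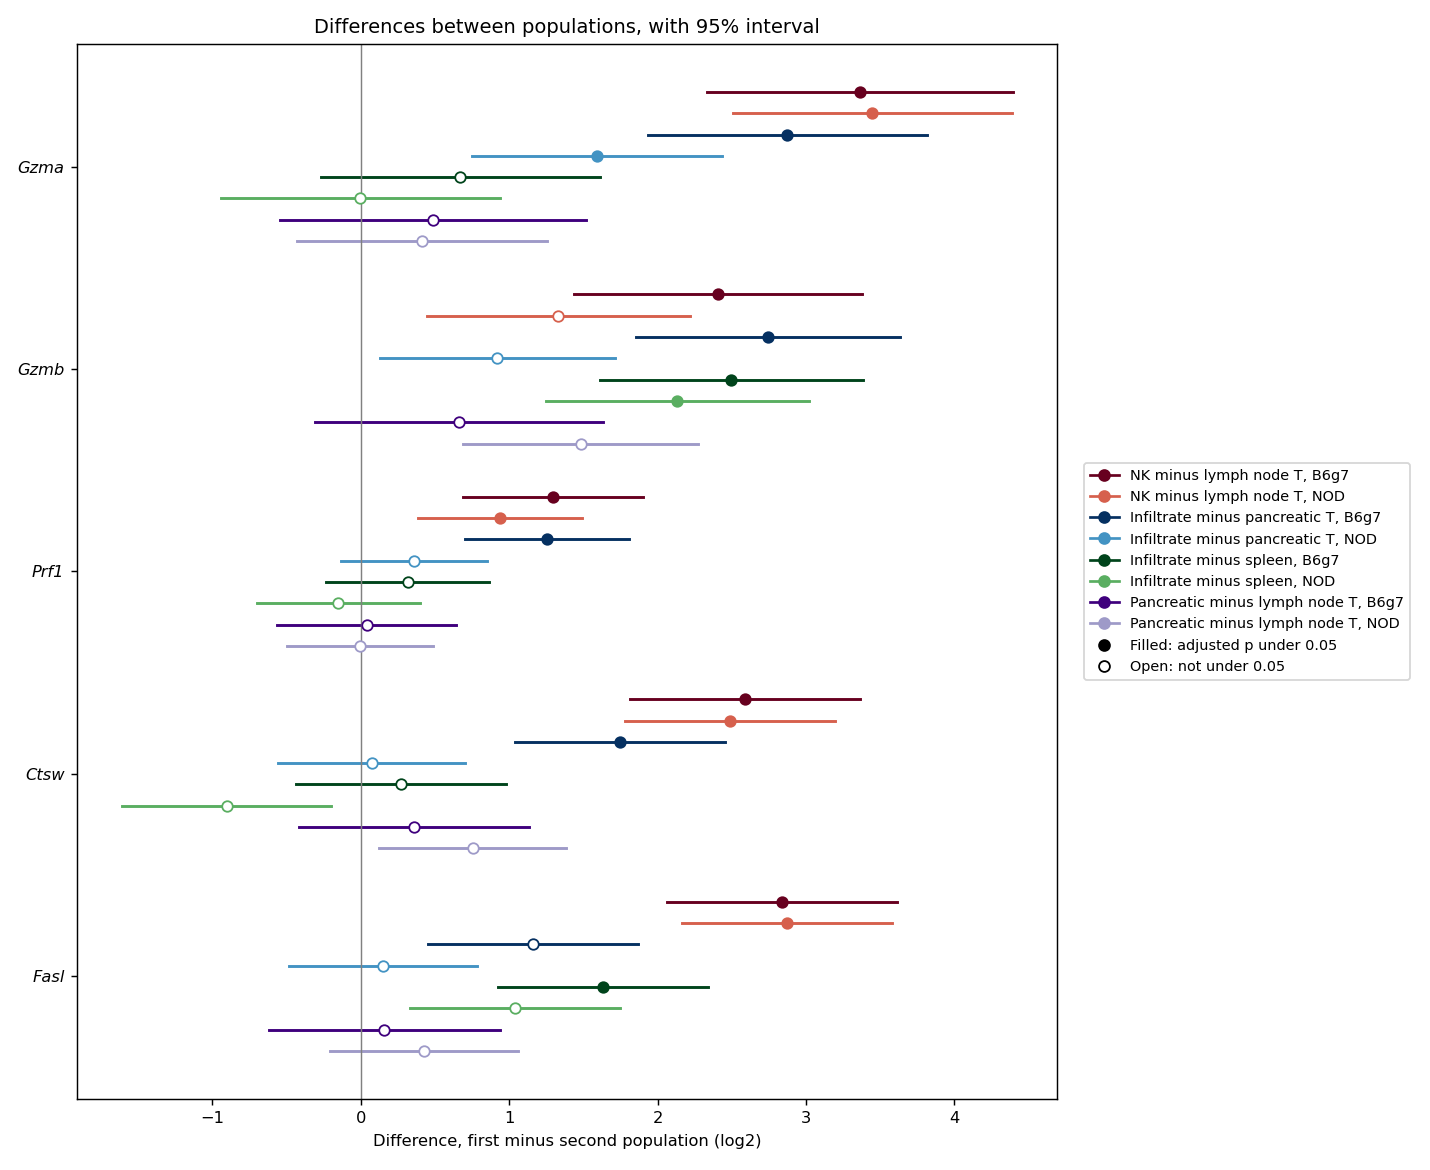
Difference between pairs of populations (x axis, log2, first minus second) for each gene (y axis) in B6g7 and NOD, with the 95% interval of the limma fit; filled points have an adjusted p under 0.05. The NK contrasts are filled for all genes but Gzmb in NOD, and the infiltrate against spleen contrasts are filled for Gzmb in both backgrounds and for Fasl in B6g7.

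Of 8 other granzymes listed, 6 had a probe set, and Gzmc, Gzmd, Gzmf and Gzmg, which lie beside Gzmb on chromosome 14, read between 3.17 and 4.32 on all 24 arrays. Gzmk read 4.05 to 5.19 and Gzmm 4.08 to 5.14. Gzmm in NOD NK cells against lymph node T cells passed with a rise of 0.66 ± 0.18 (limma adjusted p 0.0286), 1 of 6 there and 0 of 6 in each of the other comparisons.

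Of 9 genes that store or process granule proteins 8 were measured, and the 2 that rose with the members were Ctsc, the protease that activates granzymes, and Cst7, an inhibitor of Ctsc and other cathepsins. In NK cells over lymph node T cells Ctsc rose by 2.79 ± 0.36 in B6g7 and 1.92 ± 0.33 in NOD, and Cst7 by 1.61 ± 0.27 and 1.69 ± 0.25. In B6g7 infiltrate over pancreatic T cells Ctsc rose by 1.57 ± 0.33 and Cst7 by 1.0 ± 0.25. The median of the 8 in that contrast was 0.84, against -0.03 over all probe sets. Srgn, the proteoglycan that holds granzymes in granules, did not pass in any comparison, and Lamp1 and Lamp2, lysosomal membrane proteins, rose in NOD infiltrate over spleen by 1.32 ± 0.40 and 1.77 ± 0.50. Of 8 genes of granule release 4 were measured and 0 passed in any comparison.

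Among 4 measured inhibitors of 5, Serpinb9, which blocks granzyme B, rose in the same contrasts, by 2.0 ± 0.43 in B6g7 NK cells and 1.34 ± 0.39 in NOD NK cells over lymph node T cells and by 1.97 ± 0.39 in B6g7 infiltrate over pancreatic T cells, and the other 3 did not pass there. Of the 10 measured death receptors and executioners of 13, 2 fell in NK cells against lymph node T cells in both backgrounds. Of all probe sets, 1.61% fell there in B6g7 and 6.37% in NOD. Fas, the receptor of Fas ligand, fell by 1.11 ± 0.29 in B6g7 and 1.32 ± 0.27 in NOD, at group means of 3.36 to 5.0, and Casp8, the caspase it activates, fell by 1.20 ± 0.31 and 1.51 ± 0.28. Cycs in B6g7 (1.16 ± 0.34) and Tnfrsf1a in NOD (0.89 ± 0.24) rose in infiltrate over spleen. Of 4 other death ligands, Ltb fell in infiltrate against spleen, by 1.52 ± 0.34 in B6g7 and 1.49 ± 0.34 in NOD. Of all probe sets, 4.64% and 5.26% fell there. Tnf, Lta and Tnfsf10 passed in no comparison.

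Of 6 transcription factors of cytotoxic cells 4 were measured. Id2, which NK cells need to develop, rose in NK cells over lymph node T cells by 4.27 ± 0.50 or 19.3-fold in B6g7 and 3.05 ± 0.45 or 8.30-fold in NOD, and Prdm1 by 0.90 ± 0.24 and 1.02 ± 0.22. Stat4, which relays interleukin-12 signals, fell in the NOD contrast by 1.26 ± 0.38, and Prdm1 rose by 0.78 ± 0.22 in NOD infiltrate over spleen. Eomes read 7.16 ± 0.60 (SD, n = 2) in B6g7 NK cells and 5.91 ± 0.13 (n = 2) in their lymph node T cells and passed in no comparison. Between backgrounds, 0 genes of these 7 lists passed in any of the 5 populations.

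**Figure D4:**
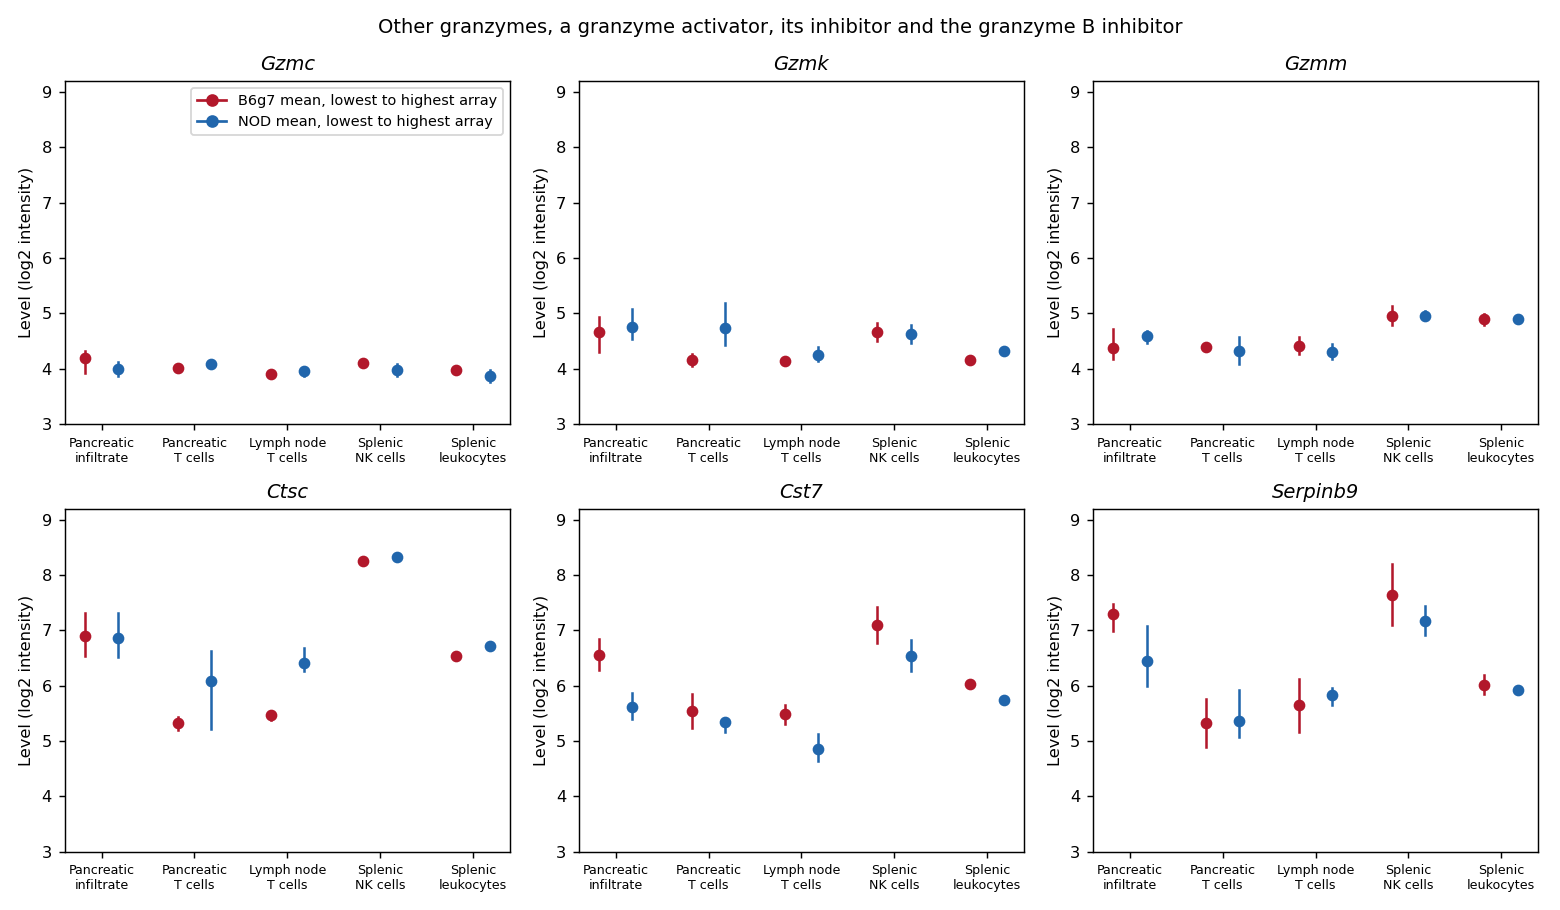
Level (y axis, log2 intensity) of 3 other granzymes, of Ctsc and its inhibitor Cst7 and of the granzyme B inhibitor Serpinb9 in 5 populations (x axis), with a point at the group mean and a line from the lowest to the highest array, B6g7 in red and NOD in blue. Gzmc stays between 3.76 and 4.32, while Ctsc, Cst7 and Serpinb9 are higher in NK cells than in lymph node T cells.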

How the data were processed

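Values are the authors' deposited intensity per probe set on a linear scale, 1 table for 24 arrays. The submitters' processing notes name RMA, without a version, for 11 arrays and no tool for 13. Those 11 are all arrays of B6g7 infiltrate, B6g7 NK cells, NOD pancreatic T cells and NOD spleen, and NOD NK replicate 2. In infiltrate, pancreatic T cells and spleen the note thus follows background. Whether the processing differed is not given, and it cannot be told apart from background there. Of 12488 probe sets 66 controls were left out. Probe sets were named through the platform annotation and RefSeq identifiers (10817 by gene ID, 16 by symbol, 396 with several genes, 1193 with none); a listed gene was read from its probe set with the highest mean. The log2 of the intensity, with no pseudocount (lowest intensity 5.70), entered a limma 3.58.1 fit of 10 group means with 14 residual degrees of freedom in R 4.3.3. P-values are two-sided and adjusted by Benjamini-Hochberg over 12422 probe sets within each of 15 planned comparisons and 1 added later, with a threshold of 0.05. The fit was tested on simulated data. Members, gene lists, comparisons and motifs were chosen with earlier results of these data known; listed genes that passed were named, at most the 4 largest per list and comparison. Replicate numbers in the titles were checked for pairing by the correlation of deviations from group means. The NOD T cells of both sites gave 0.342, 0.358 and 0.289, and those of B6g7 gave 0.790. NK cells of B6g7 and NOD, which cannot share mice, gave 0.649, so such values do not show that the numbers pair. Replicate 2 of the NOD T cells came from mice of 22 days for the lymph node and 24 days for the pancreas. No 2 arrays of a group were identical. Alternatives covered scaling, normalization, dim probe sets, weights, variance prior, samples fitted, blocks and left-out arrays. The number of arrays limits the precision.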

Additional observations from a re-analysis of the deposited data

Results flagged for a closer look

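The background difference of Gzmb pointed in opposite directions in different populations, with no overlap between the arrays of the backgrounds in any of the 3. It was -0.80 (B6g7 minus NOD, log2) in pancreatic T cells, where all 3 NOD arrays were above both B6g7 arrays, and 0.66 in spleen and 1.10 in NK cells, where both B6g7 arrays were above both NOD arrays. Over all probe sets, arrays lay apart in the same direction in 4.36% for pancreatic T cells, 15.4% for spleen and 15.4% for NK cells. The difference between these populations was not tested, and no single difference passed adjustment.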

How the results depend on the processing

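Over 16 comparisons and 5 genes, 24 of the 80 differences changed sign under at least 1 alternative, 62 times in all, and all of these had an unadjusted p of 0.243 or more as reported. Each value that follows is the count of members passing, or the log2 difference where a gene is named.

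In the background contrast of infiltrate the count of 0 became 3 with array weights, 2 with the serial run as a block and 0 to 2 with an array left out. For NK cells against lymph node T cells in B6g7 the count of 5 became 0 on only the groups compared and 3 to 5 with an array left out. For B6g7 infiltrate against pancreatic T cells the count of 4 became 2 on only the groups compared, 1 without the liver arrays and 1 to 4 with an array left out. In NOD the count of 1 became 0 with quantile normalization, array weights, only the groups compared, the serial run as a random block or no liver arrays, and 0 to 1 with an array left out. For NOD infiltrate against spleen the count of 1 became 3 with array weights and 2 on only the groups compared, and in B6g7 the count of 2 became 1 to 2 with an array left out. For NOD T cell site the count of 0 became 0 to 2, and for the added interaction 0 to 1, with an array left out.

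In the replicate block a sample without a partner of its number adds nothing to the difference. With this block the infiltrate background count became 1, through Gzma (1.68, adjusted p 0.0358 in limma). The pancreatic T cell background count became 1, through Ctsw (-1.02, limma adjusted p 0.0439), where Prf1 turned to 0.032 and Fasl to 0.021. Arrays of different backgrounds cannot share mice. In infiltrate, the arrays numbered 1 shared a run of serial codes, as did those numbered 3, but those numbered 2 did not. In pancreatic T cells no arrays of equal number from the 2 backgrounds shared a run. Between the T cell sites of NOD, whose replicate numbers were not shown to pair, the block changed no call (Gzmb 1.48, adjusted p 0.0674 in limma). It also ended the call of Prf1 in NOD NK cells against lymph node T cells (0.96, 0.0539).

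Sign changes outside the left-out arrays were as follows. Quantile normalization gave -0.029 for Gzmb between backgrounds in lymph node T cells, -0.018 for Ctsw in NOD infiltrate against pancreatic T cells and 0.076 for Gzma in NOD infiltrate against spleen. Centring on the median gave -0.035 for that Gzmb difference. Array weights gave 0.10 for Prf1 at the NOD T cell site, -0.081 for Fasl in NOD infiltrate against pancreatic T cells, -0.038 for Gzmb in the interaction with spleen, and -0.065 for Prf1 and 0.15 for Ctsw in the interaction with site. The serial run as a block gave 0.097 for Ctsw between NK backgrounds and 0.026 for Fasl in the interaction with site, and as a random block 0.012 for Fasl between pancreatic T cell backgrounds and 0.020 for Gzma in NOD infiltrate against spleen. Without the liver arrays Prf1 was 0.11 at the NOD T cell site, Fasl -0.12 in NOD infiltrate against pancreatic T cells, Prf1 -0.0013 and Ctsw -0.15 in B6g7 infiltrate against spleen and Ctsw 0.23 in the interaction with site.

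With an array left out, the background difference of Ctsw ran from -0.32 to 0.13 in spleen and from -0.29 to 0.097 in NK cells, and that of Prf1 in NK cells from -0.099 to 0.55. In pancreatic T cells Gzma ran from -0.10 to 0.88, Prf1 from -0.24 to 0.061 and Fasl from -0.31 to 0.25. In lymph node T cells Gzma ran from -0.10 to 0.74, Gzmb from -0.29 to 0.33, Prf1 from -0.27 to 0.0037 and Ctsw from -0.41 to 0.010. For T cell site in B6g7 Gzma ran from -0.0032 to 0.98, Prf1 from -0.11 to 0.19 and Fasl from -0.12 to 0.44, and in NOD Prf1 from -0.12 to 0.15. In NOD infiltrate against pancreatic T cells Ctsw ran from -0.36 to 0.39 and Fasl from -0.22 to 0.37, and against spleen Gzma from -0.52 to 0.51. The interaction with spleen ran from -0.017 to 0.81 for Gzmb, and that with site from -0.42 to 0.57 for Gzma, from -0.11 to 0.19 for Prf1 and from -0.55 to 0.013 for Fasl. Where an array was left out of a pair, the lone array was assumed to vary like the other groups. The cause of these changes was not tested. Counts of probe sets passing moved by over 1.5 times too: in the infiltrate background contrast from 34 to between 6 (without liver arrays) and 302 (array weights), in spleen from 9 to between 2 and 66, in NK cells from 6 to between 0 and 67, in pancreatic T cells from 18 to between 0 and 307 and in lymph node T cells from 16 to between 0 and 24. At the NOD T cell site they moved from 2 to between 0 and 1849 (without pancreatic T replicate 3), for NK against lymph node T cells from 437 to between 0 and 815 in B6g7 and from 1256 to between 348 and 3565 in NOD, for infiltrate against pancreatic T cells from 337 to 84 in B6g7 and from 401 to between 86 and 847 in NOD, and for infiltrate against spleen from 942 to between 324 and 4283 in B6g7 and from 1133 to between 351 and 3027 in NOD. The 3 interactions went from 5 to between 0 and 18 (spleen), from 0 to at most 1 (site) and from 2 to between 0 and 10 (pancreatic T cells). The alternative of any probe set of a gene changes nothing here, as each member had 1. The alternative without liver arrays and the added interaction were chosen after seeing the data.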
